A study of Mus musculus with 5 samples.

Results

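NF-κB transcription factors are read here through 10 genes of a NanoString panel, 5 that act in the noncanonical arm of the pathway (Relb, Nfkb2, Chuk, Traf2 and Traf3) and 5 of the canonical arm (Nfkb1, Rela, Rel, Nfkbia and Ikbkb). They are 10 of the 750 endogenous genes on the panel. The genes were taken by name, and the set was drawn up after the difference between KO and WT in these same samples had been seen, so their KO and WT values are a description with no test attached. In CD45- tumor cells, Relb averaged 46.9% of the WT level in KO samples, Traf2 69.6% and Nfkb2 68.9%. Chuk was lower by a smaller margin, at 90.9% of the WT level. The KO and WT values of Traf3 and of all 5 canonical genes overlapped. So did those of 306 of the 401 genes above background in at least 2 samples.

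The samples were CD45- cells sorted from tumors of at most 1.5 cm3 that grew from B16-OVA, a mouse melanoma line expressing ovalbumin, in C57BL/6 mice immunized with NP-OVA at days 0 and 7. KO mice were Prdm1fl/flFoxP3YFP-Cre (n = 2), in which the FoxP3-driven Cre deletes Prdm1, the gene of the transcription factor Blimp1, in regulatory T (Treg) cells. WT mice were FoxP3YFP-Cre (n = 3) and carried the same Cre with intact Prdm1. The methods give mice of both sexes, used at 5 to 10 weeks of age unless stated otherwise. A figure legend of the paper counts these samples as mice, while the labels give no age or sex and name no animal for a sample. The deletion is not in the cells that were measured, and the sort leaves out the Treg cells. Raw counts of Prdm1 were 6 and 4 in KO and 3, 10 and 5 in WT, those of Foxp3 were 3 and 5 in KO and 1, 2 and 3 in WT, and those of Ptprc, which encodes CD45, were 3 and 1 in KO and 1, 4 and 4 in WT. All of these lay below background, so they do not check the genotype. Of the melanocyte markers listed, S100b and Mcam had a probe, and both lay above background in every sample.

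In the canonical arm, receptors such as those for TNF and interleukin-1, and Toll-like receptors, activate the kinase IKKβ (Ikbkb), which marks the inhibitor IκBα (Nfkbia) for destruction and frees dimers of RelA (Rela), c-Rel (Rel) and p50 (from Nfkb1). In the noncanonical arm, receptors such as the lymphotoxin β receptor and CD40 relieve NIK from a TRAF2-TRAF3 complex that otherwise keeps it unstable. NIK then activates IKKα (Chuk), which drives processing of p100 (from Nfkb2) to p52, the partner of RelB (Relb). Both Relb and Nfkb2 are known targets of canonical NF-κB, so the arms are linked at the transcript level. Much of this signaling runs through protein cleavage, phosphorylation and location, which a count of transcripts does not see.

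A 30-base stretch around each κB consensus match shows which members carry the pathway's own binding motif just before the start of transcription. Of the 10 members, 7 matched a RefSeq promoter (GRCm38.p6), and the 250 bases before the start were searched on both strands for the κB consensus. Relb, Nfkb1 and Ikbkb had no match by name. Sequences run 5′ to 3′ along the gene, the capitals mark the match, and overlapping matches are joined.
Nfkb2, start site 1, chr19:46304688-46304717 (+): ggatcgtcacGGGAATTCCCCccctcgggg
Nfkb2, start site 1, chr19:46304707-46304736 (+): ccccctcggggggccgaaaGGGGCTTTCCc
Nfkb2, start site 2, chr19:46305449-46305478 (+): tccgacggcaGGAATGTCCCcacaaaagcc
Nfkb2, start site 3, chr19:46305695-46305724 (+): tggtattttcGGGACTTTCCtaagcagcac
Traf3, chr12:111166340-111166369 (+): cgcgcgcccaggcggcccgcGGGGATTTCC
Rel, chr11:23771042-23771071 (-): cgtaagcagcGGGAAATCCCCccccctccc
Nfkbia, chr12:55492657-55492686 (-): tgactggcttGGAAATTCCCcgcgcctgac
The consensus was matched in 4 of the 7 members, against 17.5% of the 292 tested panel genes with a promoter and 8.23% of 27025 RefSeq genes (7.25% of 32851 promoters). Nfkb2 had a match before each of its 3 annotated start sites. The 2 matches nearest its first start lay 39 to 29 and 11 to 2 bases before it. Nothing was found in these windows of Chuk, Traf2 and Rela. Genes with a match were thus found both where KO lay below WT (Nfkb2) and where the groups overlapped (Traf3, Rel and Nfkbia).

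Values below are normalized counts, that is raw barcode counts divided by the sample's housekeeping factor. Endogenous probes summed to 450207 and 461822 raw counts in KO and to 369515, 423472 and 412184 in WT. All 10 members lay above background, 13.1 to 17.7 raw counts, in all 5 samples, and all 10 entered the fit with the other genes, 401 in all. Each gene was read by 1 probe, which does not tell a precursor such as p100 from its product. Levels are compared between samples for 1 gene at a time, since probes differ in efficiency.

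Relb encodes RelB, the transactivating subunit of the noncanonical dimer. It had 131 and 143 normalized counts in KO, against 255, 332 and 291 in WT, or 137 ± 8.32 in KO and 293 ± 38.2 in WT (SD, n = 2 and 3). Both KO samples lay below every WT sample, and the lowest WT value was 1.79 times the highest KO value. The log2 fold change of KO over WT was -1.09 ± 0.18 (SE), the 9th lowest of the 401 tested genes. The 95% Poisson intervals, which cover counting error only, reached 168 at most in KO and began at 225 in WT.

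Nfkb2 encodes p100, the precursor of p52. Its normalized counts were 320 and 301 in KO and 464, 483 and 404 in WT, averaging 311 ± 13.7 in KO and 451 ± 41.1 in WT. The groups did not overlap and neither did their counting intervals, whose upper bound was 355 in KO and lower bound 365 in WT. The log2 fold change was -0.54 ± 0.14 (SE). Both genes of the p52-RelB dimer were thus lower in each KO sample than in any WT sample, with a larger difference for Relb than for Nfkb2: the log2 ratio of Relb to Nfkb2 was -1.29 and -1.07 in KO and -0.86, -0.54 and -0.48 in WT. That ratio was chosen after the values were seen.

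Chuk encodes IKKα, the kinase that triggers p100 processing and that also sits in the canonical IKK complex. It had 1097 and 1109 normalized counts in KO, against 1152, 1236 and 1253 in WT, and a log2 fold change of -0.14 ± 0.10 (SE). The groups did not overlap, but the lowest WT value was only 1.04 times the highest KO value, and the Poisson interval of KO 2 ran up to 1175 while that of WT 1 began at 1086. When samples were scaled by the positive controls alone, the log2 fold change of Chuk was 0.0076 and the groups overlapped.

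Traf2 and Traf3 encode the adaptors that, with cellular inhibitors of apoptosis, hold NIK low in resting cells. Traf2, which also acts in canonical TNF signaling, had 319 and 295 normalized counts in KO and 409, 429 and 485 in WT. Both KO samples lay below every WT sample, by a log2 fold change of -0.52 ± 0.14 (SE). Traf3 had 339 and 393 normalized counts in KO and 422, 470 and 306 in WT, so that WT 3 lay below both KO samples, and its log2 fold change was -0.13 ± 0.22 (SE). Leaving out WT 3 gave -0.29 with both KO samples below the remaining WT samples, as for 20.8% of all genes tested without WT 3. The adaptors thus differed in pattern, although the log2 ratio of Traf2 to Traf3, at -0.09 and -0.41 in KO and -0.05, -0.13 and 0.66 in WT, overlapped between the groups.

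**Figure D1:**
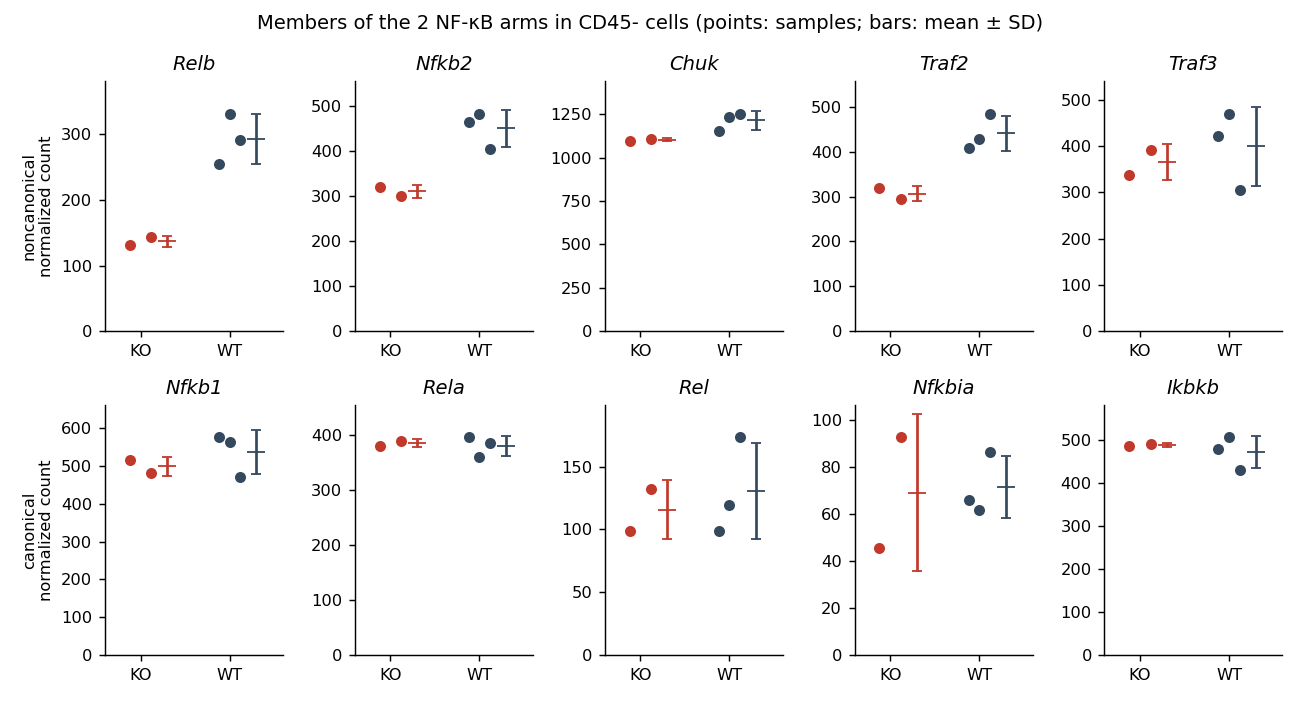
Normalized counts (vertical axes, from 0) of the 5 noncanonical genes in the upper row and the 5 canonical genes in the lower row, with 1 point per sample, KO left of WT, and a bar for the mean ± SD beside the points. Relb, Nfkb2, Chuk and Traf2 have both KO points below the 3 WT points, by the least for Chuk. The other 6 genes overlap, as 306 of the 401 tested genes do.

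Among the canonical subunits, Rela had 380 and 390 normalized counts in KO and 395, 360 and 385 in WT, and a log2 fold change of 0.02 ± 0.12 (SE). Nfkb1, the gene of p105 and p50 and the paralog of Nfkb2, had 516 and 481 in KO and 576, 564 and 471 in WT. Its KO values lay inside the WT range, with a log2 fold change of -0.11 ± 0.14 (SE). Rel, whose product is best known in lymphocytes, was read at lower counts, 98.9 and 132 in KO and 98.9, 119 and 173 in WT, with the highest value in WT 3.

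Ikbkb, the gene of the canonical kinase IKKβ, had 485 and 491 normalized counts in KO and 479, 506 and 430 in WT (log2 fold change 0.05 ± 0.12, SE). Nfkbia, whose product IκBα is both an inhibitor and a rapidly induced target of the pathway, had the fewest counts of the 10 genes. Its normalized counts were 45.5 and 92.7 in KO and 65.9, 61.9 and 86.7 in WT. The KO samples thus held both the lowest and the highest value, and the log2 fold change of -0.05 ± 0.37 (SE) became -0.65 without KO 2 and 0.38 without KO 1. Nfkbia had the widest error of the members, and its direction rested on which KO sample was kept.

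By arm, all 5 noncanonical genes had a negative log2 fold change with housekeeping scaling, as did 243 of all 401 tested genes. The noncanonical median was -0.52, the value of Traf2, and the range was -1.09 to -0.13. Chuk and Traf3 turned slightly positive with positive-control scaling, and Traf3 also without WT 2. In the canonical arm 3 were negative and 2 positive, with a median of -0.05 and a range of -0.18 to 0.05, and the sign of this median turned in 4 of 17 alternatives. Both KO samples lay below every WT sample for 4 of the 5 noncanonical genes and for 0 of the 5 canonical genes, where 59 of all 401 tested genes (14.7%) showed this separation and 36 (8.98%) the opposite one. Over all tested genes the median was -0.07. These counts describe genes that were chosen on the same contrast. In the edgeR quasi-likelihood test with Benjamini-Hochberg adjustment 0 of 401 genes (0%) passed 0.05, members included, while 25 (6.23%) had an unadjusted p under 0.05. DESeq2 called 3 of the 401 genes, Lcp1, Mcam and Relb. As Relb was chosen on this same contrast, its call is no independent support.

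**Figure D2:**
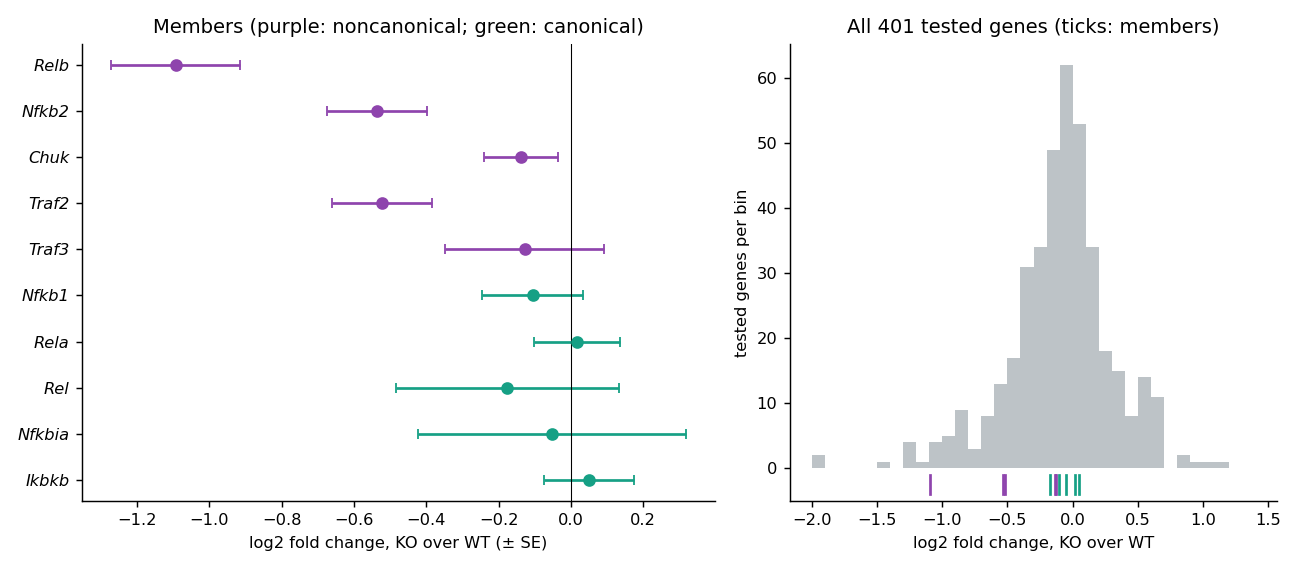
Left, log2 fold change of KO over WT with its SE for each of the 10 genes, noncanonical in purple and canonical in green. Right, the number of the 401 tested genes per bin of 0.1 in log2 fold change, with the members as ticks under the axis: Relb at -1.09, Nfkb2 and Traf2 side by side at -0.54 and -0.52, and the other 7 between -0.18 and 0.05.

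Averaging the genes of an arm within each sample, as the mean log2 difference from the WT mean, gave -0.49 and -0.46 for the noncanonical arm in KO and -0.04, 0.11 and -0.06 in WT. The KO samples were close to each other and both below the WT samples. This mean pools Relb, Nfkb2 and Chuk with Traf2 and Traf3, whose products hold NIK low, so it is no measure of the arm's activity. Relb, with a log2 fold change of -1.09, weighed most in it. The canonical arm gave -0.20 and 0.08 in KO and -0.05, -0.04 and 0.09 in WT, and there KO 2 lay within the WT range and KO 1 below it.

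The ratio of a noncanonical gene to its canonical counterpart within a sample needs no scaling between samples, because the factor cancels. The log2 ratio of Relb to Rela was -1.53 and -1.45 in KO and -0.63, -0.12 and -0.40 in WT, a difference of -1.10. The log2 ratio of Nfkb2 to its paralog Nfkb1 was -0.69 and -0.68 in KO and -0.31, -0.22 and -0.22 in WT, a difference of -0.43. The log2 ratio of Chuk to Ikbkb was 1.18 and 1.17 in KO and 1.27, 1.29 and 1.54 in WT, a difference of -0.19.

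All 3 ratios were lower in both KO samples than in every WT sample. Their genes come from the set chosen on this contrast, so the ratios describe the same differences again and add no separate support. For each ratio the WT samples were spread more widely than the KO samples. For Chuk to Ikbkb, WT 3 stood above the other WT samples, where its low Ikbkb count enters. Without WT 3 the difference for that pair was -0.10. Swapping the canonical partners, a choice made after seeing the data, gave the same separation for Relb to Nfkb1, at -1.98 and -1.75 in KO and -1.17, -0.77 and -0.69 in WT. It also did so for Nfkb2 to Rela, at -0.25 and -0.37 in KO and 0.23, 0.42 and 0.07 in WT.

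**Figure D3:**
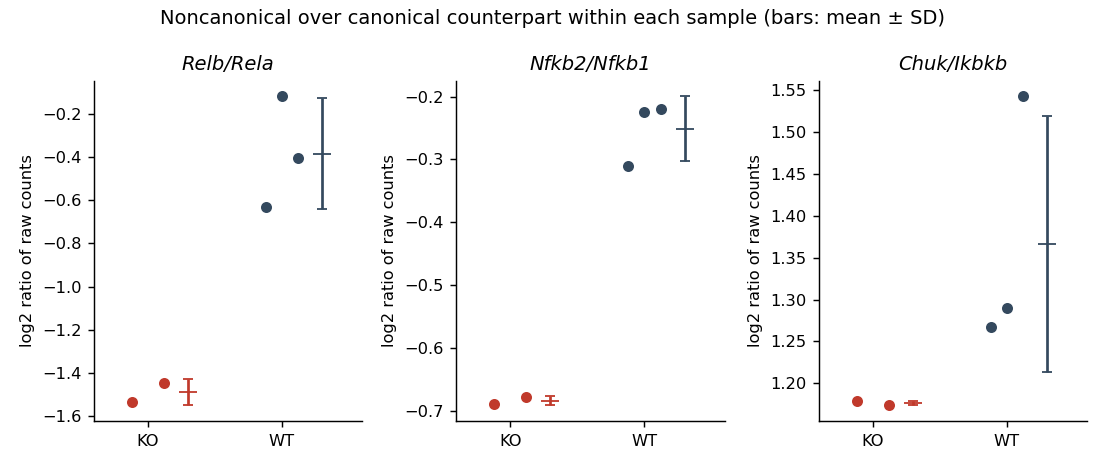
Log2 ratio of raw counts (vertical axes, which do not start at 0) of Relb to Rela, Nfkb2 to Nfkb1 and Chuk to Ikbkb in each sample, KO left of WT, with the mean ± SD as a bar. The KO points sit close together below all WT points in each panel, with differences of -1.10, -0.43 and -0.19.

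The profiles most like those of Relb and Nfkb2 were sought over the 5 samples among all tested genes, by the root mean square distance between log2 values centred on each gene's mean. Nearest to Relb were Maf (0.288), Ifit2 (0.297), Nfkb2 (0.306), Prkce (0.309) and Traf2 (0.311), while the median distance of all tested genes from Relb was 0.563. In the order of likeness to Relb, Nfkb2 stood at 3 and Traf2 at 5, followed among the members by Chuk at 93, Nfkb1 at 127, Traf3 at 144, Rel at 152, Rela at 200, Ikbkb at 206 and Nfkbia at 236. The order thus did not divide the members by arm. Nearest to Nfkb2 were Prkce (0.0774), Cd36 (0.0936), Smad3, Vegfc (0.126) and Fadd (0.144), against a median of 0.351. Cd36 was read at only 15 to 20 raw counts. In the order of likeness to Nfkb2, Traf2 stood at 10, Nfkb1 at 40, Chuk at 47, Traf3 at 79, Ikbkb at 118, Rela at 125, Relb at 149, Rel at 251 and Nfkbia at 274. All of the 5 nearest genes of each had both KO samples below every WT sample, as the measure of likeness favors.

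A further 69 NF-κB pathway genes were on the panel, of which 35 were tested. They split into 19 with a negative and 16 with a positive log2 fold change, beside 243 and 158 of all tested genes. The 35 had a median of -0.04. Both KO samples lay below all WT samples for 4 of them (11.4%; Irak1, Cxcl1, Ccl2 and Csf1) and above for 5 (14.3%; Tnfrsf9, Il1rap, Tollip, Map3k1 and Bcl2l1), beside the 14.7% and 8.98% of all tested genes. Of the 4, Cxcl1 was above background only in 2 WT samples, so that the filter itself favored this separation. None passed the adjusted threshold in edgeR. Genes in this paragraph and the next beyond the 3 of highest count per role were named after their values were seen.

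Upstream, 6 of 8 ligands of the TNF family (Lta, Ltb, Tnfsf11, Tnfsf13b, Cd40lg and Tnf), several of which engage the noncanonical arm, were below background in every sample. Tnfsf14, the ligand LIGHT, was close to background at 14.8 to 16.6 normalized counts in KO and 7.47 to 17.5 in WT. Tnfsf12, the ligand TWEAK, averaged 46.8 ± 10.5 normalized counts in KO and 51.3 ± 4.88 in WT. Among the receptors, Ltbr, the lymphotoxin β receptor, had 959 and 986 normalized counts in KO and 960, 1071 and 1072 in WT. Tnfrsf12a, the TWEAK receptor, averaged 1627 ± 359 in KO and 1414 ± 397 in WT, and Tnfrsf1a, the main TNF receptor, 1248 ± 141 in KO and 1218 ± 150 in WT. Each of these receptors overlapped between the groups. Of the kinases Tbk1, Map3k7 (TAK1) and Ripk2, none was separated, with log2 fold changes of -0.16, 0.11 and 0.02. The gene of NIK, Map3k14, had no probe by that name on the panel.

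In the Toll-like and interleukin-1 receptor route, the kinase gene Irak1 had 578 and 530 normalized counts in KO and 644, 660 and 595 in WT, and Tollip, an adaptor that restrains this route, had 1322 and 1573 in KO and 1194, 1238 and 1300 in WT. Il1rap, the accessory chain of the interleukin-1 receptor, averaged 795 ± 2.92 in KO and 740 ± 41.2 in WT. Traf6, Birc5 and Cyld, grouped as regulators of ubiquitin signaling and apoptosis, overlapped between the groups, with log2 fold changes of 0.10, -0.07 and -0.24.

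Of genes known as canonical targets, 9 of 23 were tested. Csf1, the macrophage growth factor, had 337 and 194 normalized counts in KO and 498, 683 and 339 in WT. Its highest KO value and lowest WT value were nearly equal. Bcl2l1, an inhibitor of apoptosis, went the other way with 627 and 891 in KO and 395, 593 and 516 in WT. Ccl5, a T-cell chemokine, overlapped with a log2 fold change of -0.14. Of 6 genes listed as noncanonical targets only Icosl was tested, at 110 ± 14.9 normalized counts in KO and 101 ± 9.04 in WT. The other 5, Ccl19, Ccl21a, Cxcl12, Cxcl13 and Glycam1, mostly chemokines and homing molecules of lymphoid stroma, had 15 raw counts at most in any sample and were not tested.

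**Figure D4:**
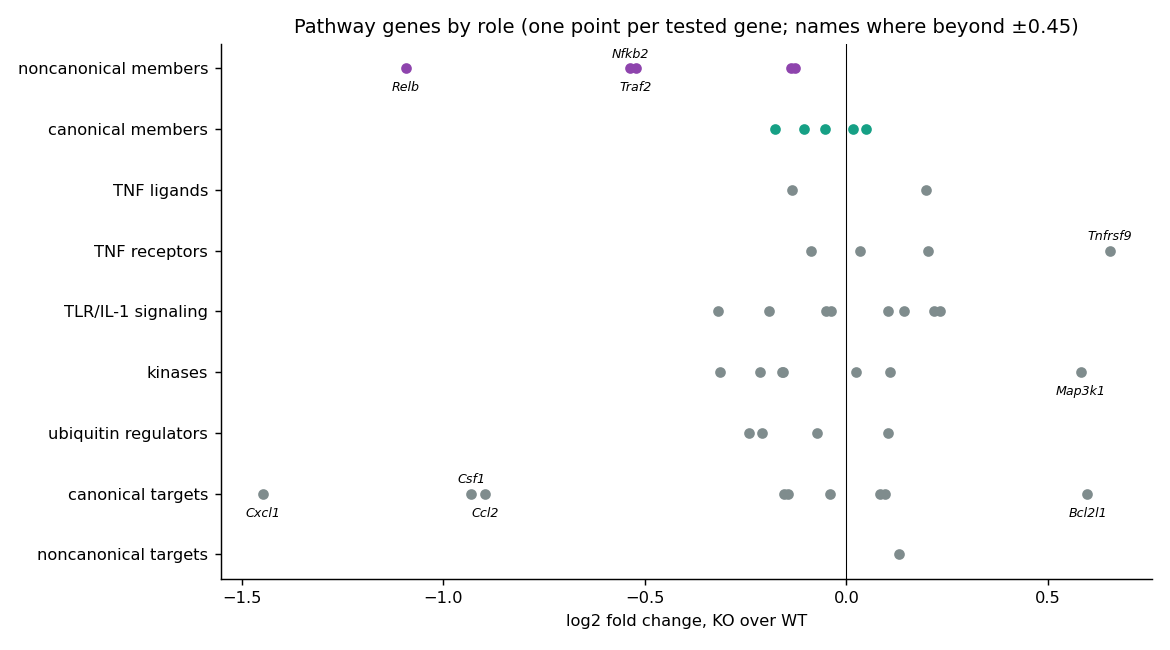
Log2 fold change of KO over WT (horizontal axis), with 1 point per tested gene and 1 row per role, members in the upper rows and the other 35 NF-κB genes below. The noncanonical genes reach to -1.09 and the canonical genes stay between -0.18 and 0.05, while targets of the canonical arm run further to both sides, with Cxcl1, a gene near background, at -1.45, Csf1 at -0.93 and Bcl2l1 at 0.60.

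Interferon-stimulated genes, which encode antiviral proteins and T-cell attracting chemokines, were set beside the members sample by sample. Cxcl10, a chemokine of this list, had 1510 and 1760 normalized counts in KO and 1573, 4202 and 3854 in WT, with WT 1 inside the range of KO. Mx2, an antiviral GTPase gene, had 38.5 and 50.3 in KO and 65.9, 252 and 194 in WT. The 14 tested genes of this list all had a negative log2 fold change, with a median of -1.02. Their summed normalized count was 10684 and 10915 in KO and 10671, 27768 and 19904 in WT, so that in the sum WT 1 lay at the KO level. Gene by gene, 5 of the 14 (Mx2, Cxcl11, Oas2, Ifit1 and Ifit2) had both KO samples below WT 1 and the other WT samples, and the other 9 overlapped. Of all 401 tested genes, 59 (14.7%) had this separation. The list holds Mx2, Cxcl11, Oas2 and Irf7, which the paper reports as lower in KO in these samples, so its counts add no separate support. Relb in WT 1 was 255 normalized counts against 131 and 143 in KO, and Nfkb2 and Traf2 in WT 1 also lay above both KO samples. Among the WT samples, Relb and the interferon sum had the same order, lowest in WT 1 and highest in WT 2. The part of the interferon genes in the Relb values was not tested.

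**Figure D5:**
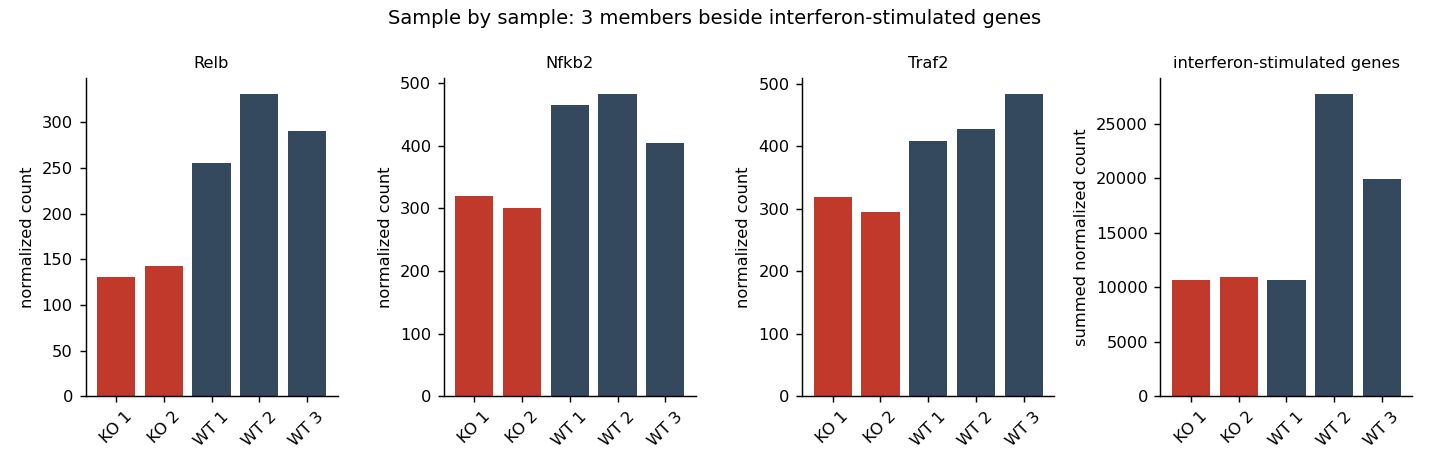
Normalized counts of Relb, Nfkb2 and Traf2 and the summed normalized count of 14 interferon-stimulated genes (vertical axes, from 0), with 1 bar per sample, KO left of WT. WT 1 matches the KO samples in the interferon sum (10671 beside 10684 and 10915) and stands above them for Relb (255 beside 131 and 143), Nfkb2 and Traf2.

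Relb and Nfkb2 are abundant in dendritic cells and B cells, so markers of other cells were read in the same samples. In bulk RNA, fewer cells of a type and less RNA per cell cannot be told apart. Of 9 dendritic cell markers 7, among them Itgax, Flt3 and Ccr7, were below background in every sample, and the list summed to 75.3 and 74.0 normalized counts in KO and 65.9, 80.0 and 80.2 in WT. All 9 B cell markers were below background. T and NK cell markers summed to 136 and 126 in KO and 112, 153 and 106 in WT, with 14 of 20 below background in every sample. Negative controls averaged 6.625 raw counts per probe in WT 1 to 9.75 in KO 1. The dendritic and the T and NK sums are thus largely background counts and do not compare cell content between the groups.

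Macrophage markers, 7 of 13 below background throughout, summed to 356 and 357 in KO and 256, 353 and 224 in WT, higher in both KO samples, though barely above WT 2. Cd68, a lysosomal protein of macrophages that made up most of the sum, had 243 and 246 in KO and 141, 210 and 128 in WT. It alone of the tested macrophage markers separated the groups. Lyz2, Fcgr1 and Cx3cr1 overlapped, with log2 fold changes of 0.36, -0.48 and 0.09, so the higher sum does not describe the list as a whole. Endothelial markers, 6 of 9 below background, summed to 1229 and 1204 in KO and 1322, 1623 and 1384 in WT, lower in both KO samples than in every WT sample, as Relb, Nfkb2 and Traf2 were. That sum came mainly from Eng and Icam2, while the defining endothelial genes Pecam1, Cdh5 and Kdr had 8 raw counts at most in any sample. Fibroblast markers summed to 1685 and 1590 in KO and 1345, 1839 and 784 in WT, lowest in WT 3. In that sample Traf3, Nfkb1 and Ikbkb were also lowest and Rel highest. The sum came mainly from Fn1, at 1274 and 1294 in KO and 871, 1358 and 454 in WT. Pdgfrb and Thy1 were lowest in WT 3 as well, but Col1a1, Col3a1 and Col4a1 were lowest in KO 2. Of the 2 melanocyte markers, Mcam, a melanoma and endothelial adhesion molecule, averaged 2645 ± 54.3 in KO and 1770 ± 130 in WT. S100b averaged 1786 ± 88.1 in KO and 1953 ± 51.7 in WT, so the 2 markers separated the groups in opposite directions. The part of cell composition in the members' values was not tested.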

How the data were processed

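RNA (100 ng per sample) was hybridized to the NanoString mouse cancer immunology panel. The authors deposited raw counts of 750 endogenous, 20 housekeeping, 8 negative and 6 positive control probes. The authors also deposited a normalized signal from nSolver, which is each sample's raw count times 1 factor (0.842 and 0.959 in KO; 0.981, 1.04 and 0.996 in WT) with a floor of 15. The main values were raw counts divided by the relative geometric mean of the housekeeping probes (1.14 and 1.01 in KO; 0.971, 0.938 and 0.935 in WT). Background was the mean plus 2 SD of the negative controls, and 401 probes above it in at least 2 samples were tested with edgeR 4.0.16 (quasi-likelihood test, genotype as the only term, Benjamini-Hochberg adjustment) in R 4.3.3. The test was checked on simulated counts.

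The members and gene lists were chosen with earlier results of these data known. The text names the members, the 3 tested genes of highest mean count per list, the 5 genes nearest in profile to Relb and to Nfkb2, and Prdm1, Foxp3 and Ptprc; other names were added after their values were seen. A gene this rule would name is not reported here. The alternatives scaled samples by total count, positive controls, TMM or DESeq2's size factors, changed the filter, subtracted background, used the deposited signal, used DESeq2 1.42.0, limma 3.58.1 or the methods' t-test, blocked on replicate number, or left out 1 sample. Intervals are exact Poisson intervals. Fold changes and p-values of the authors were not used.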

Additional observations from a re-analysis of the deposited data

How the results depend on the processing

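Relb ranged from -1.18 to -0.95, Nfkb2 from -0.61 to -0.39 and Traf2 from -0.58 to -0.37 in log2 fold change over the 17 alternatives, each negative in all of them. Scaling by positive controls alone moved the median of all tested genes to 0.07, against -0.07 with housekeeping scaling; it gave 0.0076 for Chuk and -0.37 for the noncanonical median, and 3 members (Relb, Nfkb2 and Traf2) kept both KO samples below every WT sample, as they did with total count scaling. This count was 5 without KO 2 (adding Nfkbia) and 6 without WT 3 (adding Traf3 and Nfkb1). The share of all tested genes so separated moved as well, from 14.7% with housekeeping scaling. It was 4.49% with positive controls, 12.2% with total count, 31.2% without KO 2 and 20.8% without WT 3. The number of genes at an unadjusted p under 0.05, 25 with housekeeping scaling, was 39 with no filter, 16 with the replicate block and 10 (without KO 2) to 50 (without WT 1) with 1 sample left out, while the adjusted count stayed 0 except for 3 with DESeq2 (Lcp1, Mcam and Relb). Same-numbered KO and WT samples had deviations correlated at 0.29 and 0.00025. With 2 pairs this does not show that the numbers pair the samples. The replicate block changed no direction of the noncanonical genes. WT 3 has no KO sample of its number, so the block nearly repeated the fit without WT 3. Relb was at -1.09 and -1.10 in these fits and Nfkb2 at -0.61 in both. Nfkbia and Rel, read at 45.5 to 173 normalized counts, had SEs of 0.37 and 0.31 in log2 fold change.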
